A study of Homo sapiens with 18 samples.

Results

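The change of the copanlisib effect between 8 h and 12 h of treatment was measured in HAIR-M, a human cell line of marginal zone lymphoma, which is a lymphoma of mature B cells. The 12 libraries labelled 8 h or 12 h were taken from the 18 libraries of the series, and the remaining libraries, labelled 4 h, were not used. Cells had received the solvent DMSO or copanlisib at 5 nM, an inhibitor of phosphoinositide 3-kinases (PI3K), and each combination of agent and time had 3 libraries: DMSO at 8 h, copanlisib at 8 h, DMSO at 12 h and copanlisib at 12 h. The groups share a single cell line and medium and differ by agent and time. For each gene the drug effect is the log2 ratio of copanlisib to DMSO at 1 time, and the quantity studied is the effect at 12 h minus the effect at 8 h, called the change here. A positive change therefore means a drug effect that lay higher at 12 h, whether induction had grown or repression had shrunk.

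PI3K works downstream of the B cell receptor and its co-receptors, and makes the membrane lipid that recruits the kinase AKT. AKT keeps FOXO transcription factors out of the nucleus and feeds mTORC1, which drives MYC-dependent ribosome production, lipid and amino acid metabolism, and entry into the cell cycle. Blocking PI3K in B cells is known to release FOXO targets early, while the programmes of growth and division are known to respond over longer times.

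Gene reads numbered 13587017 to 25566761 in a library, and 15767 genes were abundant enough to be tested. The 5 B cell markers were present in every library, with summed levels of 986 to 1451 counts for each 1e6 counted (CPM). Of 14 T and NK cell markers, 10 lay below 1 CPM in every library and CD3D, CD3G and CD8B had no read, whereas TRAC read 37.0 to 43.3 CPM, NKG7 7.25 to 14.8 CPM, CD7 7.77 to 12.2 CPM and CD4 2.94 to 4.98 CPM. Of 12 myeloid markers, 8 lay below 1 CPM and ELANE had no read, whereas VCAN read 95.9 to 133 CPM, ITGAM 3.04 to 5.41 CPM and CSF1R 3.07 to 4.21 CPM. Of 13 stromal and epithelial markers, 6 lay below 1 CPM, and the sum was 63.2 to 71.5 CPM in DMSO and 94.2 to 97.9 CPM in copanlisib, mainly KRT18, COL1A1, KRT8 and CDH1. The part of these markers in the results was not tested. The extract protocol in the labels speaks of retinas, but 11 of 13 retina markers lay below 1 CPM everywhere, and CRX and RPE65 had no read. PDE6B read 5.65 to 10.3 CPM and NRL 2.59 to 3.45 CPM. Nothing in the labels says that replicates came from separate cultures, so each p-value measures the spread between these libraries, which may be technical. In bulk RNA, fewer cells of one kind and less RNA per cell cannot be told apart.

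Between 8 h and 12 h the change of the copanlisib effect passed the test in few genes, and most changes that passed were small. Among the called genes, LTB, PIM2 and TXNIP stood further above DMSO at 12 h. ATF4, the main transcription factor of the amino acid response, moved from near DMSO to below it. Called genes of DNA replication mostly had lower changes, from 8 h effects above DMSO in some (CCND3 0.18, CDT1 0.21) and below it in others (DTL -0.14). The change passed an adjusted p under 0.05 in 273 of the 15767 genes (1.73%; edgeR's quasi-likelihood test with Benjamini-Hochberg adjustment, two-sided). It was higher in 142 genes (0.901%) and lower in 131 (0.831%), against 66 and 182 without a filter on low counts and 113 and 168 with the GC trend removed, and 2172 genes had an unadjusted p under 0.05. For comparison, copanlisib against DMSO passed the same threshold in 6879 genes (43.6%, with 3152 higher and 3727, or 23.6%, lower) at 8 h. At 12 h it passed in 6402 genes (40.6%, with 18.9% higher and 21.7% lower), in the same model. The change is estimated less precisely than either effect, so these counts also differ in power. For LTB the SE was 0.12 for the change, 0.09 for the effect at 8 h and 0.08 for that at 12 h. The called changes ranged in size from 0.16 to 2.09 on the log2 scale, with a median of 0.28. At least a 1.5-fold change was seen in 19 of the 273 genes and at least a 2-fold change in 5. The median change of all genes tested was 0.01.

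**Figure D1:**
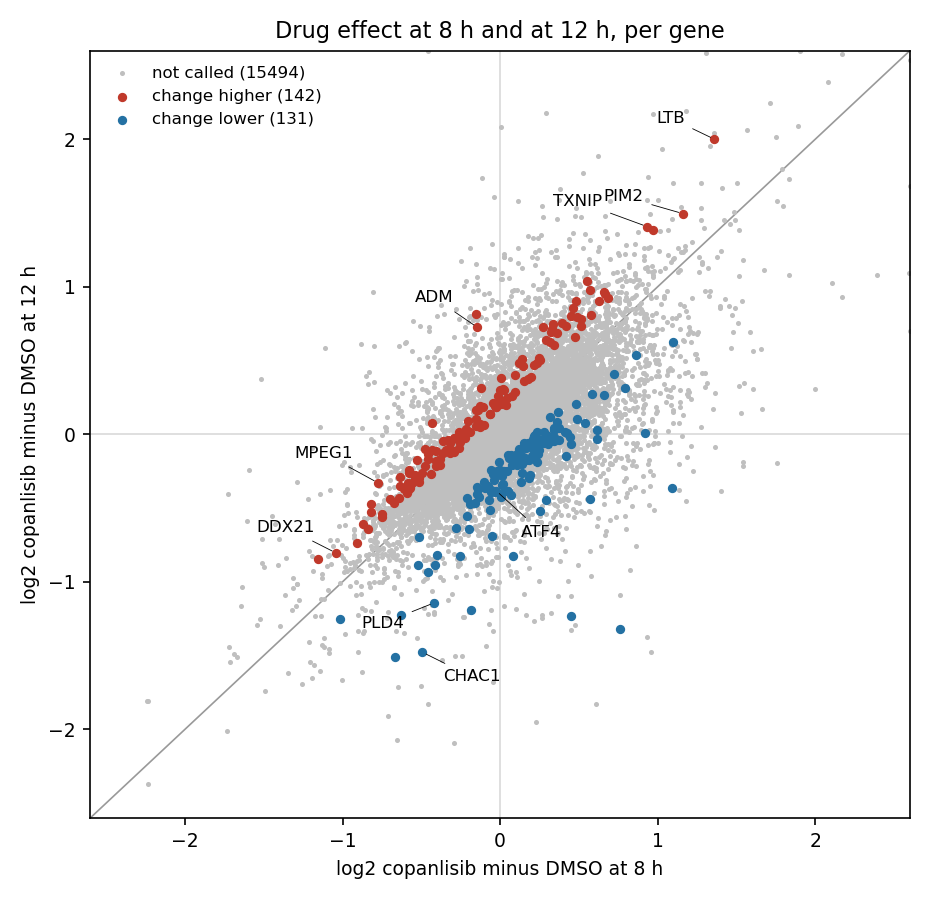
Each point is 1 gene, with the log2 copanlisib effect at 8 h on the x axis and at 12 h on the y axis, fitted over 3 libraries per group. The diagonal marks equal effects. Beyond the axes, genes that were not called are drawn at the border and called genes are not drawn. The 142 genes with a higher change (red) lie above the diagonal and the 131 with a lower change (blue) below it, as the choice by change sets.

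The drug effects of the 8 h and 12 h libraries ran alongside each other across genes, with a Pearson r of 0.68 over the 15767 genes, given as a description because genes are not independent. The 8 h and 12 h effects use separate control libraries, and the change uses the libraries of both. In the 142 genes with a higher change, a positive effect had grown in 50, a negative effect had shrunk in 60 and the sign had turned in 32. In the 131 genes with a lower change, a negative effect had grown in 41, a positive effect had shrunk in 21 and the sign had turned in 69. The estimates of opposite sign passed the test at both times in 2 of the higher genes, EPB41 and KLHL9, and in 14 of the lower genes, CCND3, MCM5 and TIMELESS among them.

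The change can come from the treated libraries, from the DMSO libraries, or from both. DMSO libraries also differed between the times: 5817 genes (36.9%; 19.4% higher and 17.5% lower at 12 h) passed for DMSO, and 5765 (36.6%; 20.7% and 15.9%) for copanlisib. Among the 142 genes with a higher change the difference between the times passed in both arms in 50, in copanlisib without DMSO in 41 and in DMSO without copanlisib in 51. For the 131 lower genes these counts were 68, 29 and 34. The DMSO arm held the larger of the 2 differences in 75 of the higher and 88 of the lower genes. In those genes the control libraries moved more between the times than the treated ones. These splits were not counted over all genes tested, and choosing genes by the change already makes the arms differ.

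**Figure D2:**
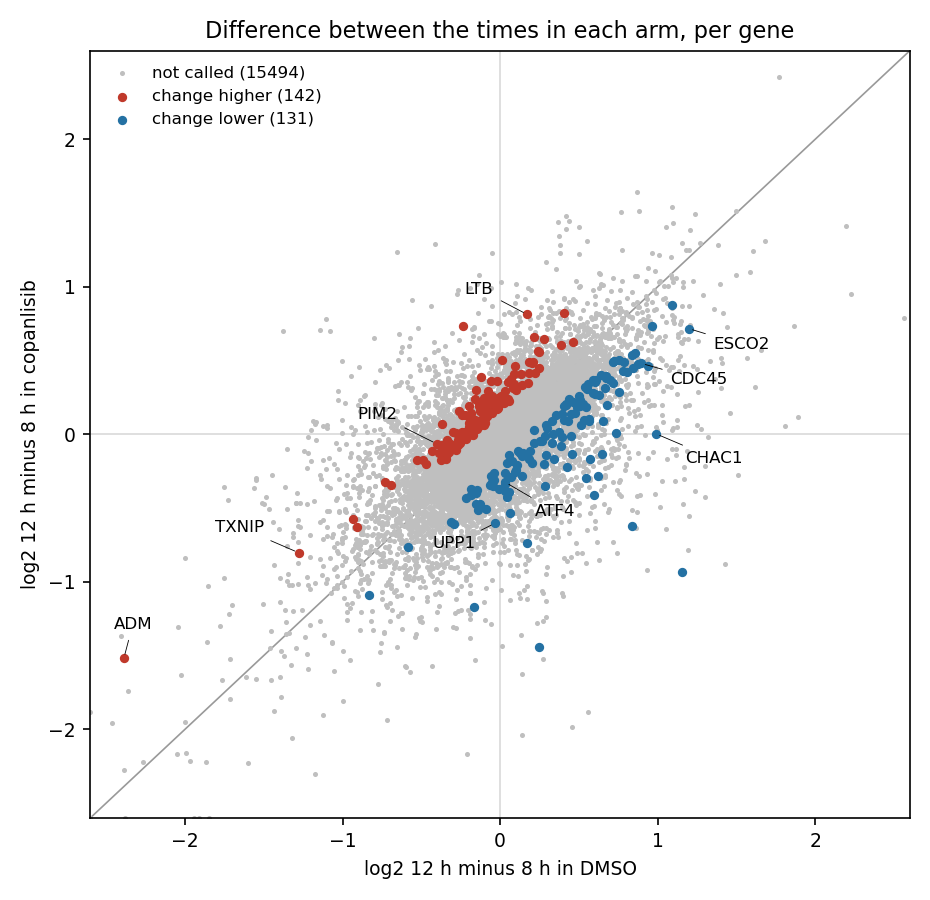
Each point is 1 gene, with the log2 difference of 12 h minus 8 h in DMSO on the x axis and in copanlisib on the y axis (3 libraries per group); on the diagonal the drug effect did not change. ATF4 and UPP1 sit near 0 on the DMSO axis and below 0 in copanlisib, whereas TXNIP fell in both arms and CHAC1 rose in DMSO with an estimate of 0.00 in copanlisib.

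LTB had the largest positive change among called protein-coding genes whose average log2 CPM reached 3. LTB encodes lymphotoxin beta, the membrane anchor of a cytokine of the TNF family through which B cells organise lymphoid tissue. Its level was 6.85, 7.38 and 7.65 CPM in DMSO and 18.6, 19.97 and 17.3 CPM in copanlisib at 8 h, then 8.30, 8.51 and 7.71 CPM in DMSO and 32.5, 31.0 and 34.2 CPM in copanlisib at 12 h. The copanlisib libraries stood above all DMSO libraries at both times, and those of 12 h stood above those of 8 h without overlap. The drug effect was 1.36 on the log2 scale at 8 h and 2.00 at 12 h, a change of 0.64 ± 0.12 (SE; edgeR quasi-likelihood adjusted p = 0.0014). LTA, which lies beside LTB on chromosome 6 and encodes the soluble partner lymphotoxin alpha, moved the other way: 20.5, 22.0 and 20.1 CPM in DMSO and 15.4, 14.02 and 16.2 CPM in copanlisib at 8 h, then 38.2, 40.3 and 41.5 CPM in DMSO and 22.5, 20.8 and 19.6 CPM in copanlisib at 12 h. LTA rose in both arms and by more in DMSO, so that its effect went from -0.46 to -0.93, a change of -0.47 ± 0.10 (edgeR adjusted p = 0.0024).

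TXNIP, a thioredoxin-binding protein that restrains glucose uptake and is a known FOXO target, had a change of 0.48 ± 0.07 (edgeR adjusted p = 2.3e-05). It read 71.6, 78.8 and 75.7 CPM in DMSO and 142, 145 and 144 CPM in copanlisib at 8 h, and 32.3, 32.9 and 28.0 CPM in DMSO and 78.6, 78.1 and 89.6 CPM in copanlisib at 12 h. TXNIP thus fell in both arms, by 1.28 on the log2 scale in DMSO and by 0.80 in copanlisib, and its drug effect went from 0.93 to 1.41. The 250 bases before the start of LTB, LTA and TXNIP, from RefSeq on GRCh38.p14, are shown because LTB and TXNIP, which stood further above DMSO at 12 h, hold the FOXO motif TGTTTAC on the opposite strand, so that its reverse complement is read here, and LTA does not. PIM2, also further above DMSO at 12 h, holds no match in its promoter. They are printed 5′ to 3′ on the strand of the gene with the motif in capitals: LTB is chr6:31582426-31582675 on the minus strand, LTA is chr6:31571849-31572098 on the plus strand and TXNIP is chr1:145996580-145996829 on the minus strand.
LTB: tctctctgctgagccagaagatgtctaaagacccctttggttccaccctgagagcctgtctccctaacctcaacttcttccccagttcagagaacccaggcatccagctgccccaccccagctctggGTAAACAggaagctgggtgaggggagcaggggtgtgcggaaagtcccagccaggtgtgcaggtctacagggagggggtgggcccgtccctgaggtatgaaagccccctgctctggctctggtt
LTA: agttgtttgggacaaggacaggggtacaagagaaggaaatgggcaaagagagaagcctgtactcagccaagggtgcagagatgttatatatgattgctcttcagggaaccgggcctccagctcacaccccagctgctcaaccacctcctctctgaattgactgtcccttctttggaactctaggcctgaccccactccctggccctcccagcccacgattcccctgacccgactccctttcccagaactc
TXNIP: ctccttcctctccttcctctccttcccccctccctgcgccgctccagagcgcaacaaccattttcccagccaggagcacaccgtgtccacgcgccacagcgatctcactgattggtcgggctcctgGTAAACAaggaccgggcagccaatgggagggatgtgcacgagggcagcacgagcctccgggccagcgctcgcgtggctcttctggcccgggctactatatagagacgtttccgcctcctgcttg

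The motif begins 123 bases before the start of LTB and 124 bases before that of TXNIP. A promoter was matched for 11053 of the genes tested, and 2.03% of these promoters held TGTTTAC on either strand. Of the 116 higher genes with a promoter, 5 held it (4.31%: LTB, TXNIP, CR1, IL2RG and ABCE1), and of the 90 lower genes 0. A match describes these letters and is no measured binding site. The E-box CACGTG was in 9.10% of all promoters, in 9 of the 116 and in 10 of the 90. The CRE core TGACGTC was in 4.99% of all, in 7 and in 2, and the AP-1 motif TGANTCA in 3.85% of all, in 4 and in 4.

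Among the other induced genes, PIM2 and TNFAIP2 had changes with small errors. PIM2, a kinase that supports B cell survival downstream of JAK-STAT signals, read 250.2, 228 and 248 CPM in DMSO and 546, 549.9 and 527 CPM in copanlisib at 8 h. At 12 h it read 183, 183 and 184 CPM in DMSO and 524, 507 and 520.4 CPM in copanlisib. The treated libraries of 12 h lay just below those of 8 h and the DMSO libraries of 12 h further below theirs, and the effect went from 1.16 to 1.496, a change of 0.34 ± 0.05 (edgeR adjusted p = 1.3e-05). TNFAIP2, an NF-kB target, read 341 to 345 CPM in DMSO and 371 to 374 CPM in copanlisib at 8 h, and 356 to 381 CPM and 505 to 519.7 CPM at 12 h, a change of 0.37 ± 0.05 (edgeR adjusted p = 6.5e-07).

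**Figure D3:**
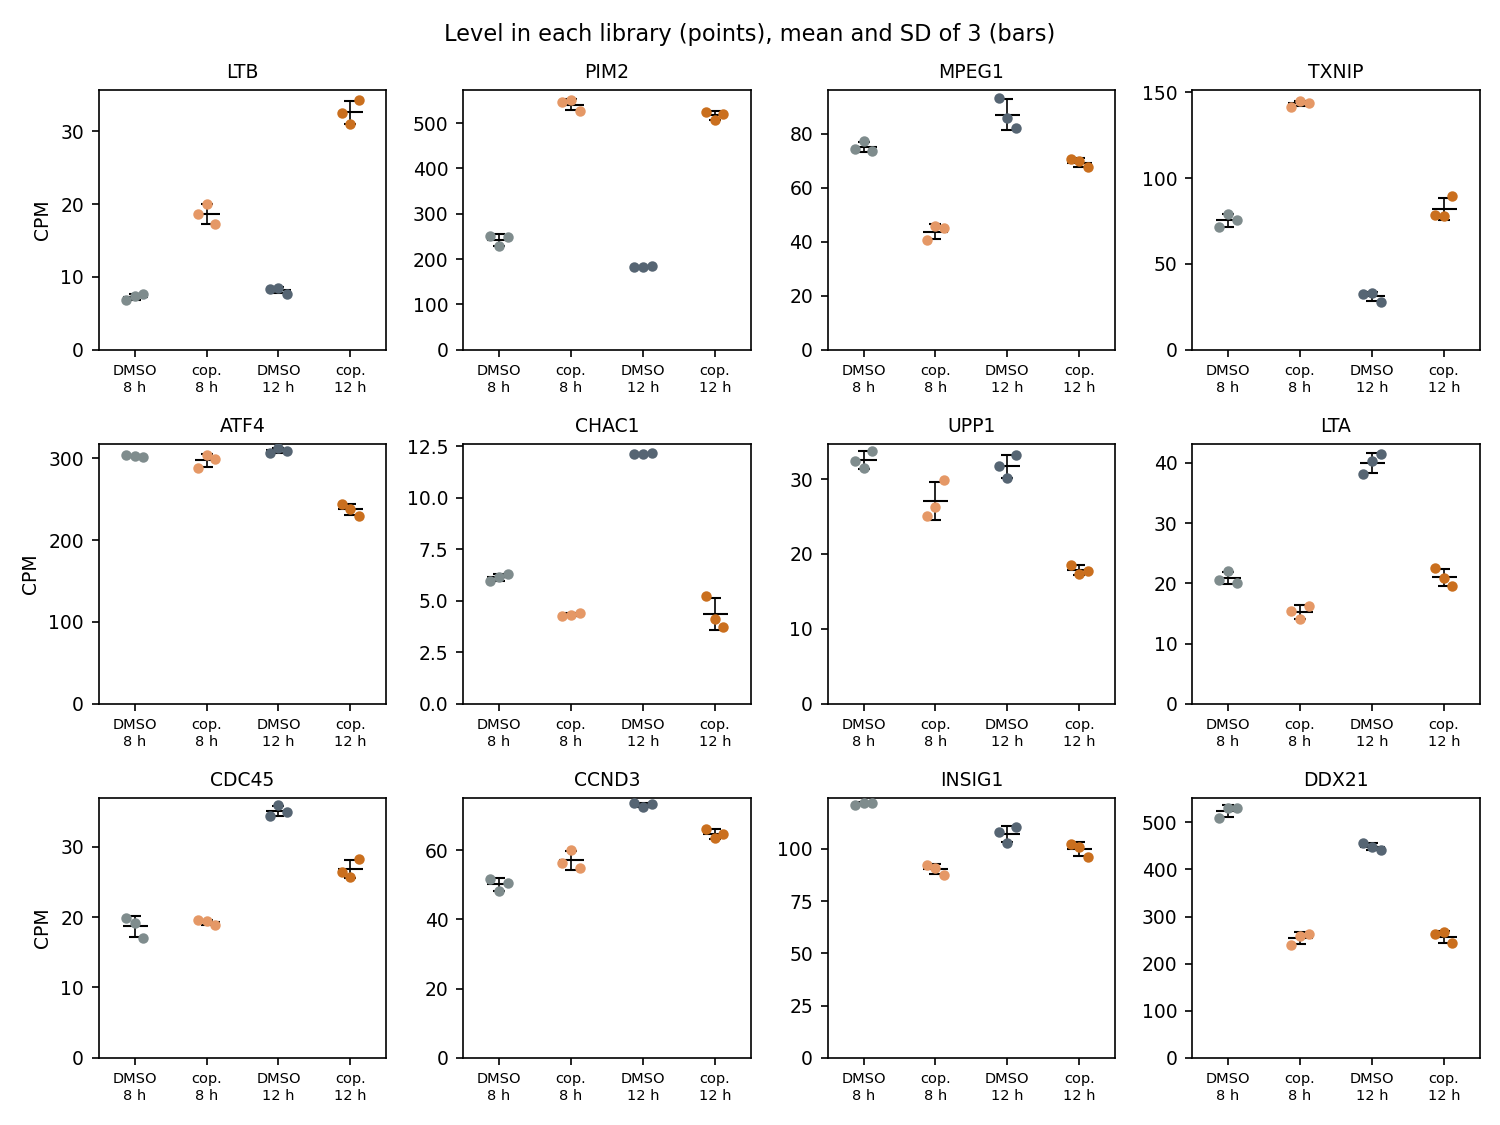
Level in CPM (y axis, from 0) of 12 named genes in each library (points), with the mean and SD of the 3 libraries of each group (bars), for DMSO and copanlisib (cop.) at 8 h and 12 h. LTB rose in copanlisib with DMSO between 6.85 and 8.51 CPM, PIM2 lay between 507 and 549.9 CPM in copanlisib while DMSO fell, and ATF4 was lowest in copanlisib at 12 h.

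Some genes of the B cell surface and its receptor had higher changes too. CD79A, which with CD79B carries the signal of the B cell receptor into the cell, read 355 to 377 CPM in DMSO and 426 to 441 CPM in copanlisib at 8 h, and 331 to 349 CPM and 469.8 to 489.9 CPM at 12 h. The change of CD79A was 0.25 ± 0.05 (edgeR adjusted p = 0.00089). That of CD79B was 0.28 ± 0.07, with an edgeR adjusted p of 0.032 that lay above 0.05 in 7 of the 12 fits that left out 1 library. SPIB, a transcription factor of mature B cells, had a change of 0.37 ± 0.07 from an effect of 0.14 to one of 0.51 (edgeR adjusted p = 0.0026). TNFRSF13C, the receptor for the survival factor BAFF, had a change of 0.21 ± 0.05 with an edgeR adjusted p of 0.030, which lay above 0.05 in 7 of those fits. CR1, a complement receptor, had a change of 0.42 ± 0.10 (edgeR adjusted p = 0.0093), which was 0.33 with an adjusted p of 0.10 without replicate 2 of DMSO at 8 h.

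Of 27 tested genes of the B cell identity list, 3 (11.1%) had a higher change, SPIB and TNFRSF13C among them, and 0 a lower one. Over all genes tested the shares were 0.901% higher and 0.831% lower. The median change of the list was 0.06. The drug effect of that list had a median of 0.16 at 8 h and 0.24 at 12 h. Of 31 genes of B cell receptor signalling, 4 (12.9%) were higher (CD79A, CD79B, CR2 and MALT1) and 1 (3.23%) was lower, with a median of -0.01. MALT1, a protease of NF-kB signalling, lay below DMSO at both times, with effects of -0.38 and -0.21, and its change was 0.18 ± 0.05 with an edgeR adjusted p of 0.049 that did not hold in 10 of the 12 fits without 1 library.

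Other genes of immune function had changes in both directions. MPEG1, the pore-forming protein perforin-2 of phagocytes and B cells, read 74.5, 77.3 and 73.8 CPM in DMSO and 40.6, 45.8 and 45.0 CPM in copanlisib at 8 h, then 93.5, 86.0 and 82.0 CPM and 70.7, 69.8 and 67.6 CPM at 12 h. Its repression shrank from -0.78 to -0.33, a change of 0.45 ± 0.07 (edgeR adjusted p = 2.3e-05). PLD4, an endolysosomal nuclease, read 12.2, 11.6 and 11.5 CPM in DMSO and 9.56, 8.20 and 8.84 CPM in copanlisib at 8 h, then 20.3, 19.9 and 18.9 CPM and 9.43, 8.61 and 8.64 CPM at 12 h. PLD4 rose in DMSO while the copanlisib libraries of the 2 times overlapped, and its effect went from -0.42 to -1.14, a change of -0.72 ± 0.12 (edgeR adjusted p = 0.00020). LILRA4, an inhibitory receptor best known from plasmacytoid dendritic cells, had a change of -0.60 ± 0.14 (edgeR adjusted p = 0.0083), and its adjusted p was 0.051 without replicate 2 of copanlisib at 8 h and 0.055 without replicate 3 of DMSO at 12 h. Summed myeloid markers were 119 to 127 CPM in DMSO and 104 to 106 CPM in copanlisib at 8 h, and 138 to 143 CPM and 112 to 122 CPM at 12 h, with VCAN as the main contributor.

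The secreted signals LTA and LIF stood further below DMSO at 12 h than at 8 h, and CCL5 passed as below it at 12 h and not at 8 h. LIF, a cytokine of the IL-6 family, read 35.4, 33.7 and 34.5 CPM in DMSO and 24.1, 28.0 and 25.7 CPM in copanlisib at 8 h, then 34.7, 35.3 and 36.8 CPM and 19.8, 19.2 and 18.8 CPM at 12 h. DMSO libraries of the 2 times overlapped and copanlisib libraries of 12 h lay below all others, a change of -0.47 ± 0.09 (edgeR adjusted p = 0.00065). CCL5, a chemokine for T cells, went from an effect of -0.06 to -0.38, a change of -0.32 ± 0.07 (edgeR adjusted p = 0.0034). The chemokine and cytokine list had 1 higher (LTB) and 2 lower genes (LTA and CCL5) of 23 tested and a median change of 0.01; LIF stands outside that list. The NF-kB list had 2 higher genes (LTB and TNFAIP2) and 1 lower (LTA) of 30, with a median of 0.08. Over all genes tested, 0.901% were higher and 0.831% lower.

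DNA replication was the list with the lowest median change. Of 50 tested genes of the G1-S transition and DNA replication, 9 had a lower change (CDC45, CCND3, CDT1, DTL, POLE, TK1, MCM4, MCM5 and RRM2) and 1 a higher one (CCND2), against 0.831% and 0.901% of all genes. The median change was -0.17, and 43 of the 50 estimates were below 0, against 7424 of all 15767. The median drug effect of the list was -0.08, -0.09 and -0.07 in the copanlisib libraries of 8 h and -0.20, -0.26 and -0.31 in those of 12 h, each set against the mean of the DMSO libraries of its time. At 8 h, 22 of the 50 genes were below DMSO and 6 above it; at 12 h, 41 were below and 0 above. Both arms rose over the interval: 45 of the 50 genes rose in DMSO, with a median of 0.46, and 42 rose in copanlisib, with a median of 0.28.

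CDC45, a subunit of the helicase that opens DNA at the fork, read 19.9, 19.2 and 16.998 CPM in DMSO and 19.6, 19.4 and 18.9 CPM in copanlisib at 8 h, then 34.4, 35.9 and 35.0 CPM in DMSO and 26.5, 25.8 and 28.3 CPM in copanlisib at 12 h. The groups overlapped at 8 h and were apart at 12 h, and the change was -0.42 ± 0.09 (edgeR adjusted p = 0.0058). CDT1, which loads the MCM helicase at origins, had a change of -0.31 ± 0.06 from an effect of 0.21 to one of -0.10 (edgeR adjusted p = 0.0025). DTL, which targets CDT1 for destruction, had a change of -0.29 ± 0.07 (edgeR adjusted p = 0.0080), which was -0.24 with an adjusted p of 0.053 without replicate 1 of DMSO at 12 h.

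The D-type cyclins CCND3 and CCND2, which start G1 progression, had changes of opposite sign. Their drug effects were close at 12 h, with -0.18 for CCND3 and -0.17 for CCND2. CCND3 read 51.8, 48.1 and 50.5 CPM in DMSO and 56.2, 60.0 and 54.9 CPM in copanlisib at 8 h, and 73.5, 72.5 and 73.2 CPM against 66.1, 63.4 and 64.5 CPM at 12 h. CCND3 was above DMSO in every copanlisib library at 8 h and below it in every one at 12 h, a change of -0.36 ± 0.06 (edgeR adjusted p = 0.00046). CCND2 read 560.5, 571 and 553 CPM in DMSO and 422, 433 and 436 CPM in copanlisib at 8 h, then 500.3, 502 and 506 CPM and 451, 455 and 436 CPM at 12 h. The repression of CCND2 shrank from -0.38 to -0.17, a change of 0.21 ± 0.05 (edgeR adjusted p = 0.0039). Named genes of chromosome duplication outside the list also had lower changes: CHTF18, of the loader of the replication clamp, by -0.47 ± 0.08 (edgeR adjusted p = 0.00020), and ESCO2, which acetylates cohesin in S phase, by -0.48 ± 0.11 (edgeR adjusted p = 0.011). For ESCO2 the adjusted p was 0.055 without replicate 2 of copanlisib at 8 h.

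Of 42 tested genes of the G2-M list, 1 (2.38%) was lower (AURKB, a mitotic kinase) and 0 higher, with a median change of -0.01. Over all genes tested, 0.831% were lower and 0.901% higher. The change of AURKB was -0.24 ± 0.07 with an edgeR adjusted p of 0.045, which lay above 0.05 in 10 of the 12 fits without 1 library. That list too rose with time, with 33 of 42 genes passing as higher at 12 h in DMSO and 34 in copanlisib. Over all genes these shares were 19.4% and 20.7%. The list of CDK inhibitors and quiescence genes had 0 higher and 1 lower of 20, with a median of 0.01, and CDKN1B, an inhibitor of cell cycle kinases, had a change of 0.05 ± 0.06 (edgeR adjusted p = 0.79). The genes with a lower change were richer in G and C: the median GC content was 54.5% in the 131 lower genes, 45.7% in the 142 higher genes and 48.1% in all. The median change went from 0.04 in the lowest to -0.03 in the highest of 5 equal bins of GC content. With the GC trend of each library removed, an alternative chosen after seeing the data, 113 genes were higher and 168 lower, with 214 of the 273 called in both, and the median of the replication list lay between -0.20 and -0.15 over the 18 alternatives run for it.

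**Figure D4:**
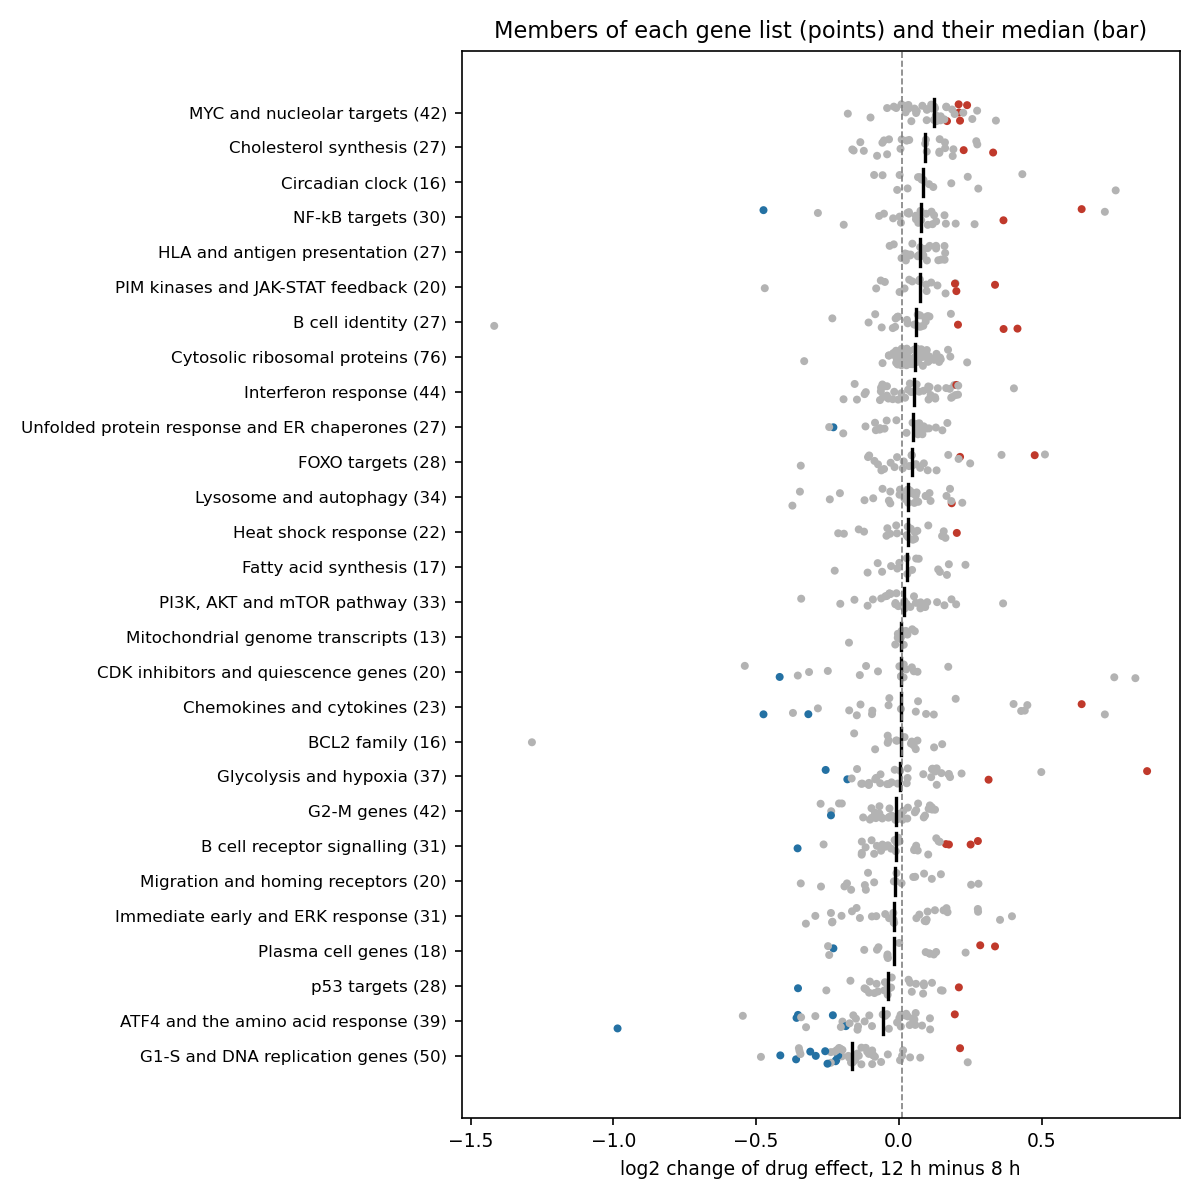
Each point is a tested member of a gene list (list size in brackets), placed on the x axis by its log2 change of drug effect from 8 h to 12 h; red and blue mark called genes with a higher and a lower change, the black bar is the list's median and the dashed line the median of all genes tested. The median of the replication list was -0.17, that of the MYC and nucleolar list 0.12.

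In the amino acid response, ATF4 itself was repressed at 12 h and not detectably at 8 h. ATF4 read 304, 303 and 301 CPM in DMSO and 288, 304 and 299 CPM in copanlisib at 8 h, then 307, 313 and 309 CPM in DMSO and 244, 238 and 230.1 CPM in copanlisib at 12 h. The copanlisib libraries of 12 h lay below all others, and the effect went from -0.02 to -0.38, a change of -0.36 ± 0.05 (edgeR adjusted p = 1.2e-06). CHAC1, which degrades glutathione and is a target of ATF4, read 5.95, 6.16 and 6.31 CPM in DMSO and 4.27, 4.33 and 4.42 CPM in copanlisib at 8 h, then 12.1, 12.1 and 12.2 CPM and 5.23, 4.12 and 3.72 CPM at 12 h. Its level rose by 0.99 on the log2 scale in DMSO while the copanlisib libraries of 12 h fell on both sides of those of 8 h, and the effect went from -0.49 to -1.48, a change of -0.99 ± 0.17 (edgeR adjusted p = 0.00023). SESN2, which senses leucine upstream of mTORC1, had an effect of 0.01 at 8 h and -0.34 at 12 h, a change of -0.35 ± 0.08 (edgeR adjusted p = 0.0056).

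Of 39 tested genes of the ATF4 list, 5 (12.8%) were lower (CHAC1, ATF4, SESN2, SLC7A5 and YARS1) and 1 (2.56%) was higher (NARS1). These shares were 0.831% and 0.901% over all genes tested. The median change of the ATF4 list was -0.06. The list was repressed at both times, with a median effect of -0.49 at 8 h and -0.52 at 12 h. Of the 39 genes, 31 and then 37 passed as below DMSO, against 23.6% and 21.7% of all genes. SLC7A5, the main leucine transporter, went from -1.02 to -1.25, a change of -0.23 ± 0.06 whose edgeR adjusted p of 0.038 did not hold in 6 of the 12 fits without 1 library. YARS1 and NARS1, which charge tRNA with tyrosine and asparagine, had changes of -0.19 and 0.20 (edgeR adjusted p = 0.042 and 0.021). UPP1, a uridine phosphorylase that salvages ribose from nucleosides, read 32.4, 31.4 and 33.8 CPM in DMSO and 25.1, 26.2 and 29.9 CPM in copanlisib at 8 h, and 31.7, 30.1 and 33.2 CPM and 18.5, 17.3 and 17.7 CPM at 12 h. UPP1 was lower in copanlisib at 12 h than in any other library, and its effect went from -0.26 to -0.83, a change of -0.57 ± 0.09 (edgeR adjusted p = 8.4e-05).

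Genes of the MYC and nucleolar list, many of which act in ribosome production, mostly lay below DMSO at both times and closer to it at 12 h. Of 42 genes of the MYC and nucleolar list, 5 (11.9%) were higher (DDX21, TSR1, NOP2, DKC1 and NOLC1) and 0 lower, against 0.901% and 0.831% of all genes. The median change was 0.12, and 37 of the 42 estimates were above 0, against 8343 of all 15767. The median effect went from -0.64 to -0.51, with 41 of 42 genes passing as below DMSO at each time. Over all genes 23.6% passed as below at 8 h and 21.7% at 12 h. Over the interval the list fell more in DMSO (28 genes passed as lower, median -0.17) than in copanlisib (11 genes, median -0.05). The shares of all genes that passed as lower were 17.5% in DMSO and 15.9% in copanlisib. DDX21, an RNA helicase of the nucleolus, read 509, 531 and 530.3 CPM in DMSO and 239, 259 and 263 CPM in copanlisib at 8 h, then 457, 448 and 441 CPM and 262, 266 and 243 CPM at 12 h. Copanlisib libraries of the 2 times overlapped while DMSO fell, and the change was 0.24 ± 0.05 (edgeR adjusted p = 0.0040). TSR1, a maturation factor of the small ribosomal subunit, had a change of 0.21 ± 0.05 (edgeR adjusted p = 0.014), with an adjusted p of 0.057 without replicate 1 of copanlisib at 8 h. The adjusted p of NOP2 and DKC1 was 0.049 for each and did not hold in 10 and 11 of the 12 fits without 1 library. The genes of cytosolic ribosomal proteins did not share the position below DMSO. Of 76, 19 passed as above DMSO and 3 as below it at 8 h, and 41 and 1 at 12 h. Their median effects were 0.05 and 0.09. Of all 15767 genes, 3152 passed as above DMSO and 3727 as below it at 8 h, and 2987 and 3415 at 12 h. The change of the ribosomal protein genes had the direction of the MYC and nucleolar list. It was above 0 in 63 of 76 estimates, with a median of 0.06, and no gene was called. MYC itself had an effect of -0.70 at 8 h and -0.60 at 12 h, a change of 0.10 ± 0.05 that was not called (edgeR adjusted p = 0.43).

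Of 27 tested genes of sterol synthesis, 2 (7.41%) were higher (INSIG1 and MSMO1) and 0 lower, against 0.901% and 0.831% of all genes. The list had a median change of 0.09 and median effects of -0.39 and -0.35. INSIG1, which retains the sterol sensor SCAP in the endoplasmic reticulum and is itself a target of SREBP, read 121, 122 and 122 CPM in DMSO and 92.3, 90.7 and 87.7 CPM in copanlisib at 8 h, then 108, 103 and 111 CPM and 102, 101 and 96.1 CPM at 12 h. INSIG1 fell in DMSO and rose in copanlisib, and its repression shrank from -0.43 to -0.10, a change of 0.33 ± 0.06 (edgeR adjusted p = 0.00019). MSMO1, a sterol methyl oxidase, had a change of 0.23 ± 0.06 with an edgeR adjusted p of 0.023 that did not hold in 5 of the 12 fits without 1 library. HMGCS1, which makes the precursor of mevalonate, had a change of 0.14 ± 0.05 and was not called (edgeR adjusted p = 0.16).

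Glycolysis and hypoxia genes fell with time in both arms, with 27 of 37 genes passing as lower at 12 h in DMSO and 28 in copanlisib. Over all genes these shares were 17.5% and 15.9%. The change was called in few genes of the list. PGK1, a glycolytic kinase, read 1212, 1133 and 1164 CPM in DMSO and 1062, 1069.5 and 1037 CPM in copanlisib at 8 h, then 655, 648 and 667 CPM and 509, 497 and 483 CPM at 12 h. Its fall was larger in copanlisib, and the effect went from -0.15 to -0.40, a change of -0.26 ± 0.05 (edgeR adjusted p = 0.00054). ALDOA, an aldolase, had a change of -0.18 ± 0.05 with an edgeR adjusted p of 0.040, which did not hold in 8 of the 12 fits without 1 library; both genes have processed pseudogenes, and reads shared with a copy were not counted. HK2, the first kinase of glycolysis, and ADM, a hypoxia-induced peptide, had higher changes of 0.31 ± 0.08 and 0.87 ± 0.23 (edgeR adjusted p = 0.035 and 0.031), which did not hold in 9 and 7 of the 12 fits. ADM stood at 10.97 ± 2.10 and 9.93 ± 1.83 CPM in DMSO and copanlisib at 8 h and at 2.11 ± 0.36 and 3.49 ± 0.27 CPM at 12 h (SD, n = 3). The list's median change was 0.00, with 2 higher and 2 lower (5.41% each, against 0.901% and 0.831% of all genes).

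The other protein-coding genes with the largest changes above that level have varied roles. On the higher side, TSPAN11, a tetraspanin, read 39.3 to 42.9 CPM in DMSO and 55.9 to 57.8 CPM in copanlisib at 8 h, and 37.0 to 40.7 CPM and 72.1 to 74.8 CPM at 12 h, a change of 0.42 ± 0.07 (edgeR adjusted p = 0.00012). DOK4, a docking protein of receptor tyrosine kinases, had effects of 0.46 and 0.86 and a change of 0.40 ± 0.07 (edgeR adjusted p = 0.00020). TENM3, a teneurin of cell adhesion, was below DMSO at 8 h and not at 12 h, with 20.8 ± 0.6 and 15.4 ± 1.4 CPM and then 19.1 ± 1.1 and 20.2 ± 0.6 CPM in DMSO and copanlisib (SD, n = 3), a change of 0.51 ± 0.10 (edgeR adjusted p = 0.0021). NAV2, PRRX1, MYRF and GNG7 had changes of 0.49, 0.46, 0.44 and 0.41, and their calls did not hold in 8, 10, 8 and 9 of the 12 fits without 1 library.

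On the lower side, GAS8, a part of the machinery that moves cilia, read 7.88, 6.84 and 8.09 CPM in DMSO and 12.3, 11.3 and 11.4 CPM in copanlisib at 8 h, then 10.7, 10.0 and 10.5 CPM and 11.3, 10.5 and 10.1 CPM at 12 h. The groups were apart at 8 h and overlapped at 12 h, a change of -0.59 ± 0.13 (edgeR adjusted p = 0.0079). With counts taken without regard to strand, the call of GAS8 was lost (adjusted p = 0.11). WDR90, a protein of centrioles, had effects of 0.13 and -0.33 and a change of -0.46 ± 0.09 (edgeR adjusted p = 0.0019). MIEF2, a mitochondrial fission receptor, ARHGAP33, which acts on small GTPases, and PDE1B, a phosphodiesterase, were above DMSO at 8 h, with effects of 0.45, 0.54 and 0.44, and stood at -0.06, 0.07 and -0.02 at 12 h. Their changes were -0.51, -0.47 and -0.46, and the calls did not hold in 4, 5 and 5 of the 12 fits without 1 library.

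In the remaining lists the counts were 0 to 3. They stand beside shares of 0.901% higher and 0.831% lower over all genes tested. FOXO targets had 2 higher genes (TXNIP and CCND2) and 0 lower of 28, with a median change of 0.05 and median effects of 0.34 and 0.38. The induction of TXNIP had grown, whereas CCND2 lay below DMSO at both times, with effects of -0.38 and -0.17. Genes of PIM kinases and JAK-STAT feedback had 3 higher, PIM2 and IL2RG among them, and 0 lower of 20, with a median of 0.07. IL2RG, the common receptor chain of several interleukins, had a change of 0.20 ± 0.05 (edgeR adjusted p = 0.019, 0.061 without replicate 1 of copanlisib at 8 h and 0.051 without replicate 3 of DMSO at 8 h).

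Plasma cell genes had 2 higher (JCHAIN and PIM2) and 1 lower (XBP1) of 18, with a median of -0.02. JCHAIN, which joins IgM and IgA into polymers, read 160.1, 160.3 and 159 CPM in DMSO and 257, 257 and 246 CPM in copanlisib at 8 h, then 88.7, 86.1 and 80.4 CPM and 155, 167 and 170.4 CPM at 12 h. JCHAIN fell in both arms and by less in copanlisib, a change of 0.29 ± 0.05 (edgeR adjusted p = 0.0013). XBP1, the factor that builds the secretory apparatus, had a change of -0.23 ± 0.05 (edgeR adjusted p = 0.012), and the adjusted p was 0.053 both without replicate 3 of DMSO at 8 h and without replicate 1 of DMSO at 12 h.

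The unfolded protein list had 1 lower gene, XBP1, and 0 higher of 27 (median 0.05), and the heat shock list 1 higher, HSPA8, and 0 lower of 22 (median 0.03). The p53 list had 1 higher, ZMAT3, and 1 lower, SESN2, of 28 (median -0.04). The interferon list had 1 higher and 0 lower of 44 (median 0.05), and the lysosome list 1 higher, LAMP1, and 0 lower of 34 (median 0.03). HSPA8, a chaperone with many processed pseudogenes, had a change of 0.20 ± 0.05 (edgeR adjusted p = 0.017), and the call did not hold in 4 of the 12 fits without 1 library. ZMAT3, a p53-induced RNA-binding protein, had a change of 0.21 ± 0.05 (edgeR adjusted p = 0.0082). The change of LAMP1, a lysosomal membrane protein, was 0.19 ± 0.05 with an edgeR adjusted p of 0.049 that did not hold in 11 of those fits. No gene was called in the lists of PI3K, AKT and mTOR components (33 tested, median 0.02), immediate early and ERK response genes (31, -0.02), fatty acid synthesis (17, 0.03), migration and homing receptors (20, -0.01), the BCL2 family (16, 0.01), HLA and antigen presentation (27, 0.07), cytosolic ribosomal proteins (76, 0.06), the circadian clock (16, 0.08) and mitochondrial genome transcripts (13, 0.01). The marker lists of other cell types had no called gene either, with 4 T and NK, 4 myeloid, 7 stromal and epithelial and 2 retina markers tested and medians of -0.09, 0.21, 0.08 and 0.21.

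Several genes with large drug effects had no detectable change between the times. XCL1, a chemokine with a near-identical copy, read 71.4, 70.3 and 68.6 CPM in DMSO and 13.5, 15.8 and 15.1 CPM in copanlisib at 8 h, and 84.0, 78.2 and 90.6 CPM and 16.6, 18.4 and 14.3 CPM at 12 h. Its effects of -2.24 and -2.37 differed by -0.13 ± 0.09 (edgeR adjusted p = 0.55). EGR1, an immediate early factor, had effects of -1.53 and -1.25 and a change of 0.28 ± 0.12 (edgeR adjusted p = 0.25). CCL3 had effects of -1.73 and -2.01 and a change of -0.28 ± 0.14 (edgeR adjusted p = 0.37), and PIK3IP1, an inhibitor of PI3K, had effects of 1.02 and 1.38 and a change of 0.36 ± 0.14 (edgeR adjusted p = 0.19). The SE of these changes leaves room for differences of the size called elsewhere. For CXCR4, a homing receptor, and TCL1A, which helps activate AKT in B cells, the changes were 0.01 ± 0.06 and 0.08 ± 0.05 (edgeR adjusted p = 0.97 and 0.48).

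The number of called genes depended on the libraries in the model. One model over all 18 libraries called 9 genes for the same contrast, all among the 273. TXNIP, PEA15, UPP1, PLIN2, IGHG3, CHAC1, ATF4 and PIM2 were among the 9. LTB was not (edgeR adjusted p = 0.080), nor were LTA (0.079), MPEG1 (0.053), CD79A (0.33) and INSIG1 (0.076). The replication genes CDC45, CCND3, CDT1 and DTL were not called either (edgeR adjusted p = 0.10, 0.24, 0.49 and 0.36). The biological coefficient of variation was 0.050 in that model against 0.0289 in the 12 libraries. Without replicates 1 and 2 of copanlisib at 4 h, which was chosen after seeing the data, 176 genes were called and the coefficient was 0.0313. In those replicates 8.73% and 5.22% of reads were unmapped, against 1.74% to 2.82% in the 12 libraries. Mitochondrial genes held 12.4% and 12.6% of their gene reads, against 9.07% to 10.5%.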

How the data were processed

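RNA sequencing of HAIR-M cells gave 1 deposited count table for each library. The authors deposited raw counts, handled with CASAVA 1.7 and STAR 2.5.2b on hg38 per the submitters' processing notes, and no source used here names the annotation release. Groups, times and replicate numbers came from the labels. The strand column that held 95.0% to 95.3% of the strand-assigned reads in the 12 libraries was used, although the kit named in the labels' protocols does not mark strand. Of all reads, 1.74% to 2.82% were unmapped and 9.28% to 10.1% mapped to several places and stayed uncounted. A further 10.0% to 13.0% met no gene on the counted strand, and 2.37% to 2.45% were shared between genes. These summary lines entered no test. The copanlisib libraries of 8 h stood apart, with 12.4% to 13.0% meeting no gene, against 10.0% to 12.0% in the other groups. Their gene reads were 72.0% to 73.3% of all reads, against 73.9% to 75.2%. What this difference does to the change was not tested. No replicates agreed within sampling noise (chi-square per gene 1.52 to 2.87 over genes with at least 20 reads). Depth was 13587017 to 25566761 gene reads per library, and intervals and errors cover these libraries only.

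With R 4.3.3 and edgeR 4.0.16, genes were filtered by filterByExpr, scaled by TMM and fitted by glmQLFit with a mean for each of the 4 groups. Two-sided p-values from glmQLFTest were adjusted over all 15767 genes (Benjamini-Hochberg), with 0.05 as the threshold for a call. The SE is the log2 value divided by the square root of F. CPM use TMM-scaled library sizes, and marker sums plain ones. Of 60483 identifiers, 56321 were named from a gene name table and 432 from GENCODE 29. Of the entries of the 32 gene lists, 923 matched and 2 did not.

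The libraries, gene lists and motifs were chosen with earlier results of these data known. Named genes are the 12 highest and 12 lowest changes among called protein-coding genes whose average log2 CPM reaches 3 and whose per-library effects of 8 h and 12 h do not overlap, up to 4 called members of each list by size of change, and 14 fixed genes, with antigen receptor segments kept out of the first group. The condition on overlap removed no called gene, since all 273 met it, and it is no added support. Among all 15767 genes, 5195 (32.9%) met it. Further called members are named beside their list's count. Some called genes are not reported here. Alternatives were DESeq2 size factors, no filter, DESeq2 1.42.0, limma 3.58.1 with voom, counts without strand, a replicate block, all 18 libraries, an adjusted p under 0.01 and leaving out each library; GC offsets and a model of 16 libraries were added after seeing the data. The edgeR test of the change was tried on simulated data first.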

Additional observations from a re-analysis of the deposited data

Results flagged for a closer look

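The drug effects of 8 h and 12 h differed by the interaction test (edgeR quasi-likelihood, adjusted p under 0.05) in 273 genes. In 16 of them the effect passed the test at both times with opposite signs. The sign turned from above DMSO to below it in 14 genes. The largest such changes were those of CCDC163 (-1.01), the long noncoding RNA HELLPAR (-0.78) and CHTF18 of the clamp loader (-0.47). ANGPTL6 followed with -0.37, CCND3 with -0.36, SHMT1, which feeds folate-bound carbon into thymidine synthesis, with -0.35, and FANCG of interstrand crosslink repair also with -0.35. The rest were SLC25A24 (-0.33), SELENOH (-0.32), the kinetochore gene ZWINT (-0.30), IQGAP2 (-0.30), TCF19 (-0.29), TIMELESS of the replication fork (-0.24) and the helicase subunit MCM5 (-0.22). In the other direction stood EPB41 (0.30), of the membrane skeleton, and KLHL9 (0.26), an adaptor of a ubiquitin ligase.

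In 13 of these 14 genes the estimated level in DMSO was higher at 12 h, from 0.03 in ANGPTL6 to 0.85 in ZWINT. ANGPTL6 (0.03 in DMSO and -0.34 in copanlisib) and SELENOH (-0.15 and -0.48) differed more in copanlisib. FANCG, for example, had an effect of 0.25 at 8 h and -0.10 at 12 h, with rises of 0.78 in DMSO and 0.43 in copanlisib.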

How the results depend on the processing

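All 273 called genes kept their sign in every alternative that tested them. The calls numbered 258 with DESeq2 size factors, 248 without a filter, 213 with DESeq2, 258 with limma-voom, 222 without strand and 281 with GC offsets, of which 257, 193, 188, 245, 217 and 214 were among the 273. Counts that moved by over 1.5 times were 66 higher genes without a filter (182 lower), 85 lower genes with DESeq2 (128 higher), 96 genes at an adjusted p under 0.01 (48 higher, 48 lower), 9 with 18 libraries (6 higher, 3 lower) and 176 with 16. The cause of the smaller count over 18 libraries was not tested. Leaving out 1 library gave 146 to 244 calls (65 to 124 higher, 78 to 125 lower). The lowest were 146 without replicate 1 and 159 without replicate 3 of copanlisib at 8 h, 171 without replicate 2 of DMSO at 12 h and 179 without replicate 2 of DMSO at 8 h.

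The change of CCL3 was 0.065 with counts without strand. That of CXCR4 was -0.014 without a filter, -0.024 with GC offsets and -0.035 to 0.063 when 1 library was left out. Of 61 called genes named by the rule, 32 held in every fit without 1 library.

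With replicate number as a block the calls were 290 (293 with GC offsets as well). The numbers did not pair the libraries: same-numbered deviations correlated at -0.19 to 0.18, and 4 of 12 libraries correlated best with their own number. Depth set which genes could be tested, since those under the filter on low counts were left out. The SE of the change was 0.23 for ADM, at an average log2 CPM of 2.81, and 0.17 for CHAC1, at 2.74.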

Other observations

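IGHG3, an antibody heavy chain gene and one of the 9 genes called over 18 libraries, was chosen after its values were seen, as were all genes named here. IGHG3 read 835, 795 and 839 CPM in DMSO and 1121, 1131 and 1127 CPM in copanlisib at 8 h, then 509.7, 504 and 513 CPM and 882, 891 and 891 CPM at 12 h. It fell in both arms and by less in copanlisib, with effects of 0.45 and 0.80 and a change of 0.35 (edgeR adjusted p = 8.4e-07). IGKC, the kappa light chain, had effects of 0.34 and 0.61 and a change of 0.26 (edgeR adjusted p = 0.00084). Immunoglobulin genes have near-identical copies, so reads may be split or lost between them.

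IL6ST, the shared receptor chain for IL-6 and LIF, read 219, 232 and 231 CPM in DMSO and 222, 228 and 231 CPM in copanlisib at 8 h, and 219.9, 229 and 202 CPM against 256, 255 and 291 CPM at 12 h, a change of 0.30 (edgeR adjusted p = 0.00085). IL1R2, a decoy receptor for IL-1, had effects of 0.01 and 0.38 and a change of 0.38 (edgeR adjusted p = 0.0034). CSF2RB and IL13RA1 had changes of 0.26 and 0.24 (edgeR adjusted p = 0.0092 and 0.022). PLIN2, a coat protein of lipid droplets, had effects of 0.14 and 0.47 and a change of 0.32 (edgeR adjusted p = 8.4e-05). CD48, an adhesion receptor of lymphocytes, read 508 to 539 CPM in DMSO and 516 to 529.9 CPM in copanlisib at 8 h, and 486 to 526 CPM against 405 to 434 CPM at 12 h, a change of -0.27 (edgeR adjusted p = 0.00046).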
